A study of Rattus norvegicus with 39 samples.

Results

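A set of 4 mature miRNAs that have been proposed in the literature as markers of testis injury, rno-miR-202-5p, rno-miR-202-3p, rno-miR-320-3p and rno-miR-134-5p, were followed in rat sperm after exposure to a testis toxicant. They were taken by name from the table of mature miRNA counts, and all 4 were found among its 405 miRNAs. The RNA came from spermatozoa of the cauda epididymis of wild-type Fischer males aged 11 to 12 weeks, 1 male per library. The solvent EGME, or ethylene glycol monomethyl ether, had been given by gavage in water on 5 days, and the males were then left unexposed for 5 weeks. The groups are named by dose in mg/kg/d: EGME0 (water vehicle, n = 10), EGME50 (n = 10), EGME60 (n = 9) and EGME75 (n = 10). All 39 libraries were made from 10 ng of total RNA and sequenced on 13 chips of 3 libraries each.

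EGME is metabolised to methoxyacetic acid, which damages spermatocytes in the testis. A miRNA guides an Argonaute protein to target RNAs mainly through its seed, bases 2 to 8. miR-202 is a gonad-enriched miRNA of Sertoli cells in the testis and of granulosa cells in the ovary. miR-320 is found in many tissues, and its hairpin is made without the nuclear enzyme Drosha. miR-134 belongs to the large imprinted Dlk1-Dio3 cluster of miRNAs and is best known from neurons.

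Sequences are shown to make clear which molecules were counted and how the arms of miR-202 relate to let-7. RefSeq's table for the rat build GRCr8 held 3 of the 4 mature miRNAs. They are written 5′ to 3′ with the seed in capitals.
rno-miR-202-5p: uUCCUAUGcauauacuucu
rno-miR-202-3p: aGAGGUAUagcgcaugggaaa
rno-miR-134-5p: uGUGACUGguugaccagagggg
rno-let-7a-5p: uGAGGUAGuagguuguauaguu
Both arms of miR-202 come from 1 hairpin at chr1:204184345-204184416 on the minus strand, inside an annotated long noncoding RNA gene and between Utf1 and Adam8. Its sequence is given with the 5p and 3p arms in capitals.
Mir202: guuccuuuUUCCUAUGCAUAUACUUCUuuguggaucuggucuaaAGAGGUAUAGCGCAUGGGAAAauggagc
The mature miR-134-5p lies at chr6:134570320-134570341 on the plus strand, also inside a long noncoding RNA gene, among the hairpins Mir382, Mir668 and Mir485. The gene of miR-320, Mir320a, overlaps no other annotated gene and neighbours Polr3d. None of the 3 sequences shared its whole seed with another of the 693 rat miRNAs in that table. The seed of miR-202-3p shared bases 2 to 7 with 9 miRNAs of the let-7 family, which includes miR-98-5p. It differed from that of let-7a-5p by U8G, counted from the 5′ end with the base of miR-202-3p first. All 9 were in the count table, with means from 0.718 (miR-98-5p) to 299.4 counts per library (let-7a-5p), against 0.179 for miR-202-3p.

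The miRNA table was shallow. It held 139 to 38208 counts per library, and the group medians fell in order of dose, from 15325 in controls through 14786 and 9270 to 3202 at EGME75. The sum of all 4 deposited tables ran from 244869 to 24308152. Levels are therefore given as counts, and as counts scaled to a library of 1000000 miRNA counts (CPM). Among the 15795 values of that file, 9662 were 0, only 17 were 1 and 1088 were 2, so a value of 0 may also stand for a read that was dropped, and no upper limit was set on values of 0. Germ cell miRNAs (miR-34b, miR-34c and miR-449 arms), which mark the labelled tissue, were present in every library, at 64748 to 330892 CPM in sum.

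The members fell into 2 that were measurable and 2 that were nearly absent. miR-320-3p was above 0 in 39 of 39 libraries and miR-202-5p in 22. miR-202-3p was above 0 in 2 libraries and miR-134-5p in 1, all of them at EGME60. Of the 39 libraries, 17 were at 0 for miR-202-5p, 37 for miR-202-3p, 0 for miR-320-3p and 38 for miR-134-5p.

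**Figure D1:**
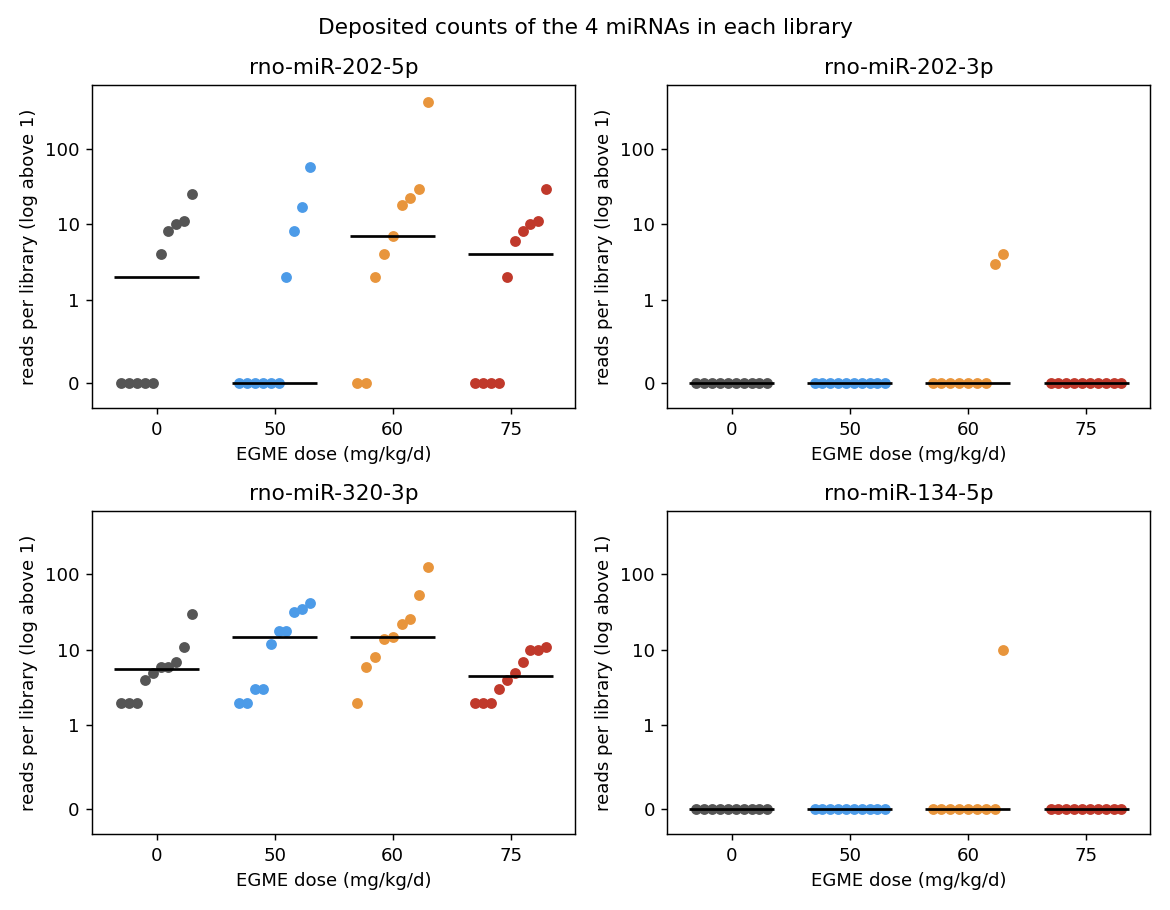
Deposited counts of each of the 4 miRNAs by dose in mg/kg/d. Each point is 1 library (1 male), the bar is the group median, and the vertical axis is linear from 0 to 1 and logarithmic above. miR-320-3p has no library at 0, miR-202-5p has 17, and the few reads of miR-202-3p and miR-134-5p are all at 60 mg/kg/d, with 422 reads of miR-202-5p in 1 library there.

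miR-320-3p rose at the higher doses relative to the other miRNAs. In control males its count was 2 at the lowest, 5.5 at the median and 30 at the highest, which gave 180 to 1821 CPM with a median of 351. At EGME50 it was counted 2 to 42 times (99.5 to 2422 CPM, median 1249). Some EGME50 males thus lay at control levels and others above all of them. At EGME60 the counts were 2 to 126, or 216 to 4221 CPM with a median of 2480. At EGME75 the counts were only 2 to 11, but in smaller libraries, which gave 232 to 21583 CPM with a median of 1459. The groups overlapped at every dose. The highest control, 1821 CPM, was replicate 33, with 2 reads of 1098. The next highest control stood at 785 CPM, and 6 of 10, 7 of 9 and 9 of 10 males lay above that at EGME50, EGME60 and EGME75.

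The table was tested with edgeR's quasi-likelihood test over 105 miRNAs that passed a filter on low counts, which kept miR-202-5p and miR-320-3p and dropped the other 2 members. An adjusted p is Benjamini-Hochberg over those 105, and a miRNA is called where it lies under 0.05. miR-320-3p was not called at EGME50 (log2 fold change 1.06, SE 0.56, edgeR adjusted p = 0.290), where 2.86% of tested miRNAs were called. It was called higher at EGME60 (2.02, SE 0.58, a 4.07-fold difference, edgeR adjusted p = 0.00517; 8 of 9 males above the control median), where 31.4% were called. It was also called at EGME75 (1.81, SE 0.62, 3.50-fold, edgeR adjusted p = 0.0134; 9 of 10 males above the control median), where 42.9% were called. A slope on dose over all 4 groups gave a log2 difference of 2.04 (SE 0.59) between 0 and 75 mg/kg/d, with an edgeR adjusted p of 0.00345, where 45.7% were called. By p, miR-320-3p ranked 16 of 105 at EGME60, 35 at EGME75 and 27 for the slope, so it was among many called miRNAs.

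Pooled over each group's reads, its level was 453 CPM in controls, 948 at EGME50, 1471 at EGME75 and 2120 at EGME60. The order of the upper 2 doses depended on how they were averaged. EGME60 replicate 29 held 46.3% of the reads of its group, and without it the pooled level there was 1489 CPM. The group means ran the other way, at 2323 ± 1571 CPM (SD, n = 9) at EGME60 and 4270 ± 6558 (n = 10) at EGME75. No step between neighbouring doses passed. From EGME50 to EGME60 the log2 difference was 0.96, with a 95% interval of -0.11 to 2.03 (edgeR adjusted p = 0.416). From EGME60 to EGME75 it was -0.22, with an interval of -1.39 to 0.95 (edgeR adjusted p = 0.976). In both steps edgeR called 0% of the 105 miRNAs. At an unadjusted p under 0.05 there were 14 and 8. DESeq2 called 3 and 0 there, and limma-voom 0 and 0.

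The difference depended on what the counts were scaled to. Scaled to 1000000 counts of all 4 tables, miR-320-3p had a median of 0.496 in controls. The medians of the exposed groups were 1.44, 1.42 and 0.598 in order of dose, so EGME75 lay near control. The means from control to EGME75 were 0.955 ± 0.915 (SD, n = 10), 1.59 ± 1.21 (n = 10), 2.08 ± 2.04 (n = 9) and 1.96 ± 3.69 (n = 10). With that sum as library size the log2 fold change was 1.28 at EGME60 (edgeR adjusted p = 0.311), 0.36 at EGME75 (edgeR adjusted p = 0.785) and 0.92 for the slope (edgeR adjusted p = 0.467), and none was called. That scaling moved the median of all tested miRNAs from -0.10 to -1.13 log2 at EGME75, beside which the 0.36 of miR-320-3p stands. In such bulk samples fewer cells of a type and less RNA per cell cannot be told apart.

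The call at EGME75 also rested on shallow libraries. Replicate 24 had 3 reads of miR-320-3p among 139 (21583 CPM), replicate 23 had 7 among 807 (8674 CPM) and replicate 7 had 4 among 995 (4020 CPM). The other 7 males had a mean of 1203 ± 588 CPM (SD, n = 7), against 523 ± 484 (n = 10) in controls. Without those 3 libraries the log2 fold change at EGME75 was 1.07 (edgeR adjusted p = 0.165). When the log10 miRNA total entered the model it was 0.74 (edgeR adjusted p = 0.405). With limma-voom it was 1.30 (adjusted p = 0.0593). At EGME60 it kept its call under these settings.

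**Figure D2:**
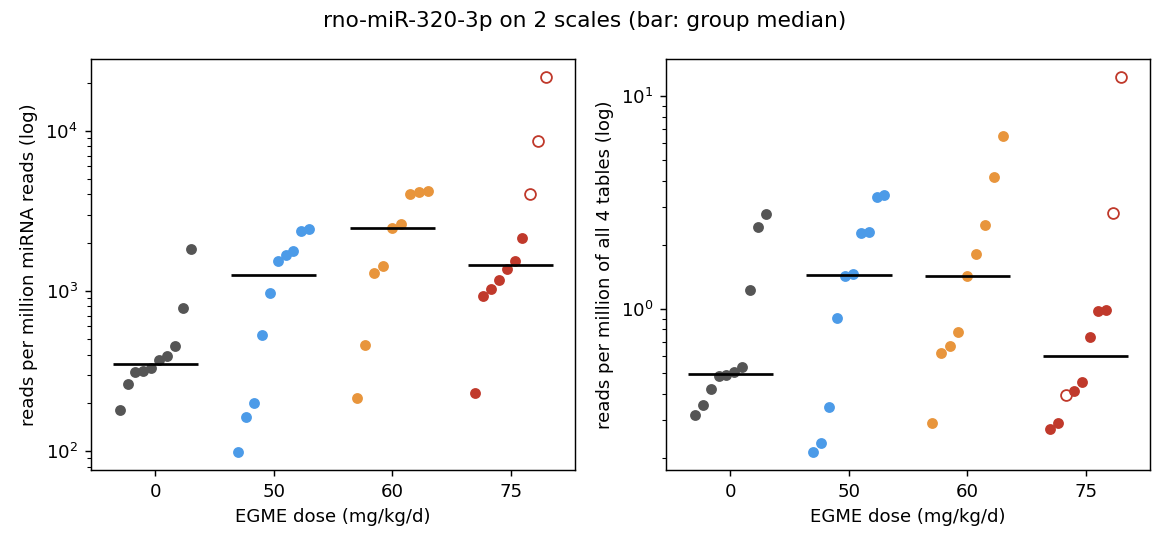
rno-miR-320-3p by dose in mg/kg/d, left scaled to 1000000 counts of the miRNA table and right to 1000000 counts of all 4 tables, on log axes. Each point is 1 library, open points are the 3 libraries with under 1000 miRNA counts and bars are group medians. On the left the medians are 351, 1249, 2480 and 1459, and on the right 0.496, 1.44, 1.42 and 0.598, so at 75 mg/kg/d the right-hand median is close to that of control.

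miR-202-5p was uneven between males. In controls it was at 0 in replicates 10, 17, 18, 33 and 34, and at 4 to 25 reads in the other 5. At EGME50 it was at 0 in replicates 3, 11, 19, 20, 28 and 36, and at 2 to 57 reads in 4 males. So 9 of the 20 males of EGME0 and EGME50 had any reads. At EGME60 only replicates 6 and 22 were at 0. The other 7 males had 2, 4, 7, 18, 22, 29 and 422 reads. At EGME75 replicates 15, 23, 24 and 31 were at 0, and 6 males had 2 to 29 reads. The median counts were 2, 0, 7 and 4 in order of dose. Median levels were 104 CPM in controls, 0 at EGME50, 533 at EGME60 and 1254 at EGME75. All groups overlapped, since each held libraries at 0. The males at 0 tended to have smaller miRNA libraries, with a median of 5212 counts against 11581 where the miRNA was seen, although 1 library with 20924 counts had none.

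Of the 3 dose comparisons, miR-202-5p was called only at EGME60 (log2 fold change 2.49, SE 0.95, 5.60-fold, edgeR adjusted p = 0.0430), where it ranked 31 of 105 by p. There 7 of 9 males lay above the control median of 104 CPM, which were those with any read, and 2 exceeded the highest control. The call rested on EGME60 replicate 5, whose 422 reads were 83.7% of the reads of that group and 59.3% of those of all 39 libraries. It stood at 21082 CPM, and the next male, replicate 14, at 5427. The group mean was 3221 ± 6908 CPM (SD, n = 9), and 989 ± 1809 (n = 8) without replicate 5, against 343 ± 531 (n = 10) in controls. Without replicate 5 the log2 fold change was 0.98 (edgeR adjusted p = 0.396). The call was also lost with chip as a fixed block, which compares libraries within chips (1.74, edgeR adjusted p = 0.359), and when any 1 of 7 control males was left out. On the chip of replicate 5 the other libraries held 0 (EGME0 replicate 34) and 11 reads (EGME75 replicate 39).

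At EGME75 miR-202-5p did not pass (log2 fold change 1.41, SE 0.99, edgeR adjusted p = 0.243). There 4 of 10 males exceeded the highest control (1326 CPM), at 2010 to 3625 CPM, and 4 were at 0. At EGME50 it stood at -0.56 (SE 0.96, edgeR adjusted p = 0.783), with a 95% interval of -2.44 to 1.31. The slope gave 2.01 (SE 1.03, edgeR adjusted p = 0.106). The steps from EGME50 to EGME60 (3.05, edgeR adjusted p = 0.118) and from EGME60 to EGME75 (-1.07, edgeR adjusted p = 0.840) did not pass either. Without EGME60 replicate 5 the last step was 0.51. The biological coefficient of variation, the spread between males beyond counting error, was 1.67 for miR-202-5p, the highest of the 105 tested. It was 0.725 for miR-320-3p, against 0.588 in common over the table.

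**Figure D3:**
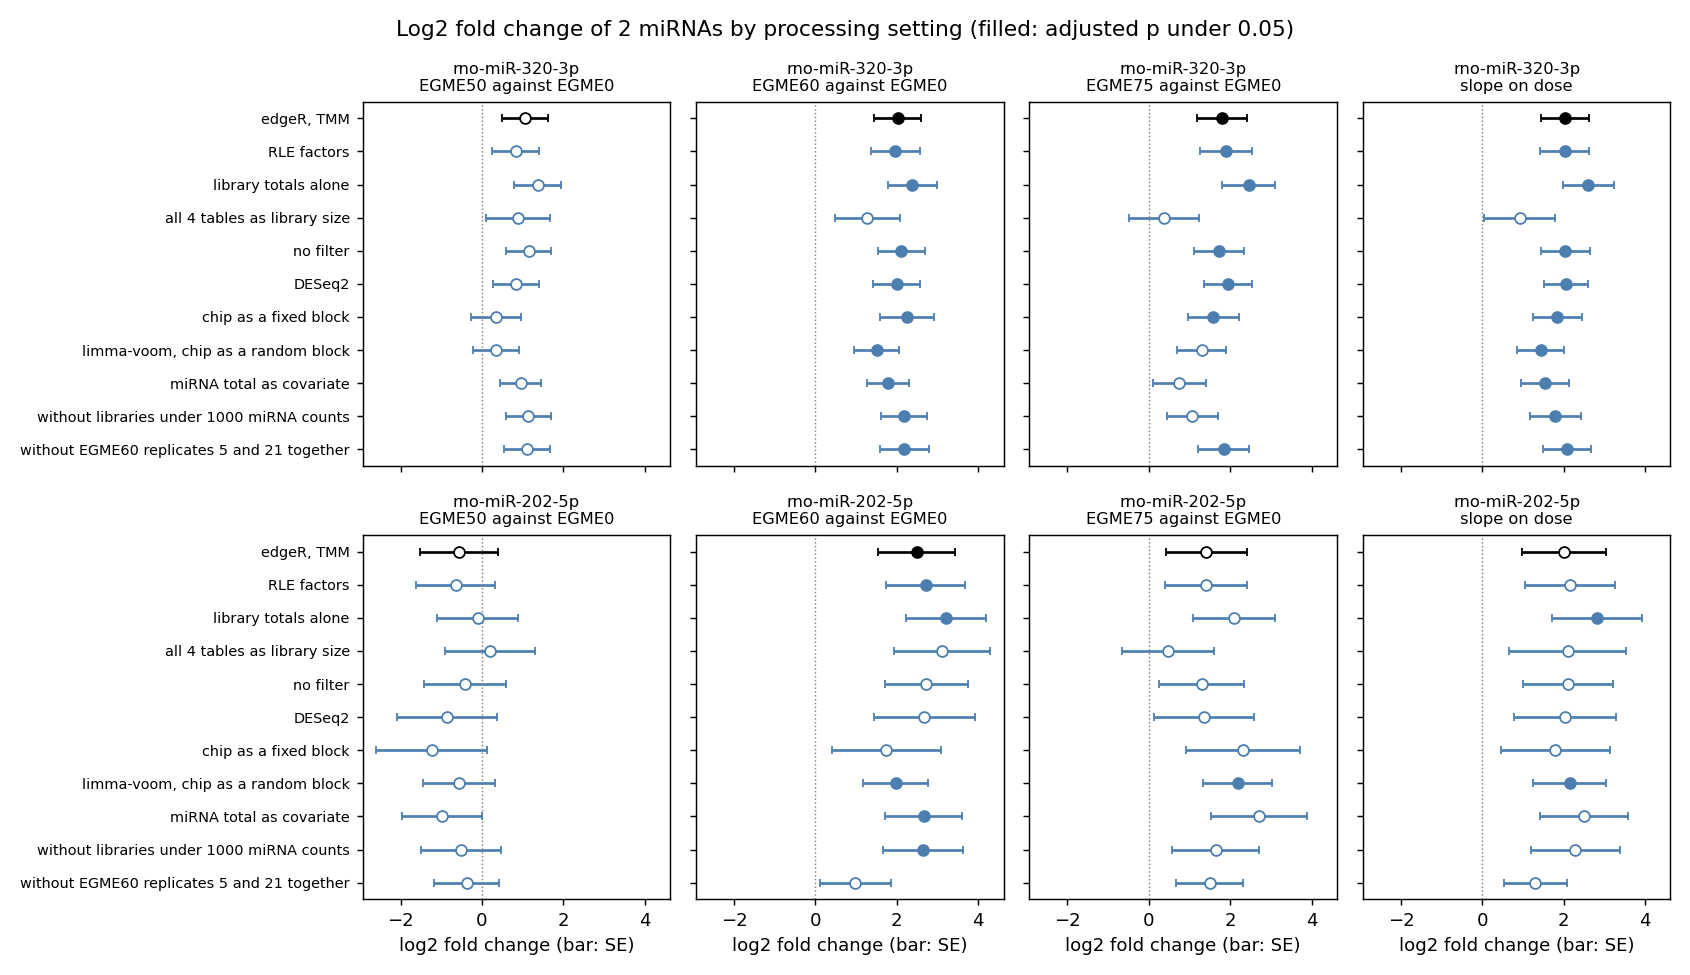
Log2 fold change (horizontal axis, bars are standard errors) of rno-miR-320-3p (top row) and rno-miR-202-5p (bottom row) at each dose against EGME0 and for the slope over 75 mg/kg/d. Rows are the main edgeR fit (black) and the alternatives, and filled points have an adjusted p under 0.05. For miR-320-3p the EGME60 points lie between 1.28 and 2.38, and for miR-202-5p the EGME60 point drops from 2.49 to 0.98 without EGME60 replicates 5 and 21.

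Reads of miR-202 came almost wholly from the 5p arm. Over all libraries there were 712 reads of miR-202-5p and 7 of miR-202-3p, so 99.0% were 5p (exact Clopper-Pearson 95% interval 98.0 to 99.6%, which covers counting error only). The 3p reads were 3 in EGME60 replicate 5 and 4 in EGME60 replicate 21, where the 5p arm had 422 and 22 reads. miR-202-3p was at 0 in 10 of 10 males at EGME0, EGME50 and EGME75 and in 7 of 9 at EGME60. In the same way miR-320 was seen as its 3p arm, with 570 reads against 3 of miR-320-5p, all 3 in the EGME75 group.

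miR-134-5p was seen only in EGME60 replicate 21, with 10 reads of 37020 (270 CPM), and was at 0 in the other 38 libraries. In an edgeR fit without the filter, over 404 miRNAs, it was nonetheless called at EGME60 (edgeR adjusted p = 0.0347), as was miR-202-3p (edgeR adjusted p = 0.0439). These calls rest on 1 and 2 libraries, and without them the rows hold no reads, so no fold is given. Its neighbours in the Dlk1-Dio3 cluster were scarce as well: 27 other arms of the cluster were in the table and none passed the filter. Their summed counts per group were 47, 88, 84 and 35 in order of dose, in libraries of unequal depth, and 3, 2, 1 and 4 libraries had none. Scaled to depth, the medians of the summed level were 195, 417, 594 and 573 CPM. The most frequent was miR-434-3p, with a mean of 2.64 counts per library. Together with miR-134-5p the cluster reached 33 reads in EGME60 replicate 21, the most of any library, but at 891 CPM that library ranked 9 of 39.

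Zeros were also set against abundance, as a description of the whole table. miR-320-3p had a mean of 14.6 counts and no library at 0. Of the 61 other miRNAs with a mean from 0.5 to 2 times that value, the number of libraries at 0 had a median of 8 and a range of 1 to 17. In all, 21 miRNAs were above 0 in every library. miR-320-3p had the lowest mean of these, and the next, miR-24-3p, had 74.8. Its count was exactly 2 in 9 libraries and never lower. miR-202-5p stood on the other side, with 17 libraries at 0 at a mean of 18.3, while 57 miRNAs of like mean had a median of 6 and at most 13. That mean rests largely on EGME60 replicate 5, which held 59.3% of its reads, and its median count was 2. Without that library its mean would be lower, and the comparison was not repeated without it. Of the 98 miRNAs that averaged 10 counts or more, none had more libraries at 0 than miR-202-5p, and none had a larger share of its reads in 1 library.

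**Figure D4:**
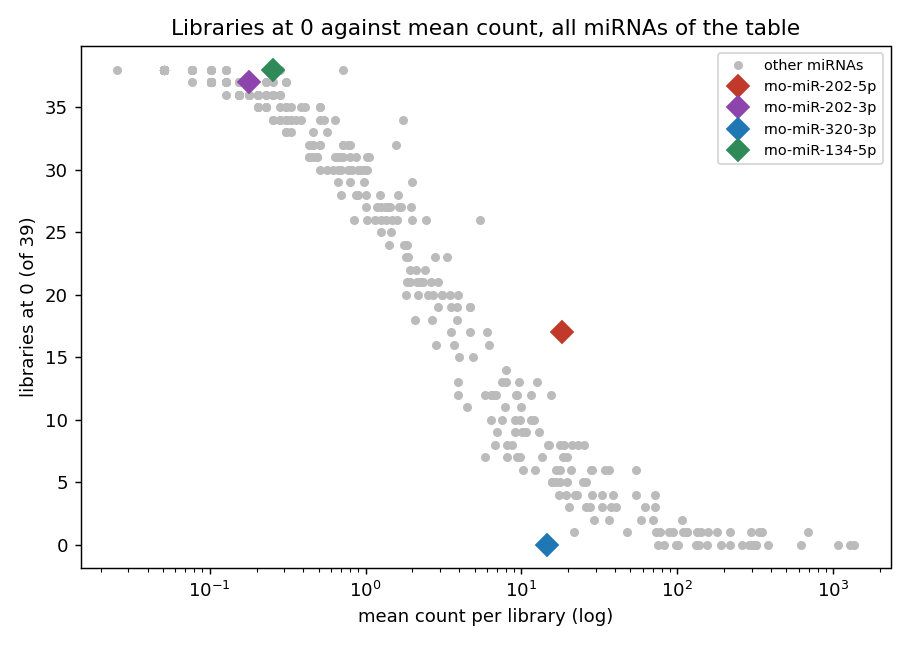
Number of the 39 libraries at 0 (vertical axis) against the mean count per library (log axis) for every miRNA with a read in the table, 1 grey point each, with the 4 members as diamonds. miR-202-5p (17 libraries at 0, and 59.3% of its reads in 1 library) lies above the band of other miRNAs at its mean. miR-320-3p (0 libraries) lies below the band, while miR-202-3p (37) and miR-134-5p (38) lie in its upper left end.

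The 2 measurable members did not move together across males. Over the 39 libraries of all dose groups Spearman's rho between their log2 CPM was -0.09. For this, CPM were taken over the 105 tested miRNAs with TMM factors and a prior count of 2. The 17 libraries at 0 for miR-202-5p were tied at its lowest level. Over the 97 others that averaged 10 counts or more, the most like miR-320-3p were miR-24-3p (rho 0.63), miR-23a-3p (0.55) and miR-150-5p (0.45), a lymphocyte miRNA. The most like miR-202-5p were miR-143-3p (0.57), a smooth muscle miRNA, miR-27a-3p (0.53) and miR-21-5p (0.51). These values share libraries and depth and are descriptions. The rho with the log10 miRNA total was -0.41 for miR-320-3p and 0.19 for miR-202-5p.

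The other markers proposed with these 4 went the other way or did not pass. miR-449a-5p, a miRNA of meiotic and later germ cells that is also counted among the germ cell miRNAs here, was called lower at EGME60 (log2 fold change -1.06, edgeR adjusted p = 0.0102) and EGME75 (-1.05, edgeR adjusted p = 0.00583). At EGME75 that call was lost with library totals alone (-0.48), with the miRNA total as covariate (-0.49) and without the 3 shallow libraries (-0.60). At EGME60 it was lost with the sum of the 4 tables (-1.27). miR-92a-3p, of the miR-17-92 cluster, was at -0.38 and -0.41 (edgeR adjusted p = 0.571 and 0.521).

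Of the 6 germ cell miRNAs 5 were tested, and 3 were called lower at EGME60 and 4 at EGME75, none higher. Of all tested miRNAs 11.4% were called lower at EGME60 and 21% at EGME75. Their median log2 fold changes were -0.84 and -1.05, against 0.11 and -0.10 for all tested miRNAs. The largest fall was that of miR-34c-3p, by 2.41 at EGME75 (edgeR adjusted p = 1.93e-06). The median stayed below 0 under all 10 alternatives, while the number called lower ranged from 0 (sum of the 4 tables) to 4 at EGME60 and from 2 to 5 at EGME75. It was 2 at EGME75 without the 3 shallow libraries, with library totals alone and with the miRNA total as covariate. At EGME60 it was 2 with library totals alone, with no filter, without the 3 shallow libraries and without EGME60 replicates 5 and 21.

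Some markers of other cell types were also called higher, and some that were not tested had lower pooled levels in exposed groups than in controls. Blood cell miRNAs (6 of 7 in the table) had a median sum of 1136 CPM in controls (range 0 to 3432), 2888 at EGME50 (1190 to 12365), 8374 at EGME60 (216 to 21732) and 7885 at EGME75 (2478 to 48241). At EGME60 and EGME75, 3 of the 3 tested were called higher: the red cell miRNA miR-451-5p (log2 fold changes 2.93 and 3.26), the myeloid miR-223-3p (2.04 and 1.77) and miR-150-5p (1.57 and 2.33). Of all tested miRNAs 20% were called higher at EGME60 and 21.9% at EGME75. With the sum of the 4 tables none of the 3 was called at either dose, and their median log2 fold change went from 2.04 to 2.26 at EGME60 and from 2.33 to 1.25 at EGME75. Of the 3, 2 were called at EGME60 without replicates 5 and 21, with chip as a fixed block and with limma-voom. At EGME75, 2 were called without the 3 shallow libraries. miR-144-3p, another red cell miRNA, was at 0 in every group but EGME60, where it had 2 reads. The white cell miRNA miR-142-5p, which was not tested, had a pooled level of 259 CPM in controls and 108, 140 and 184 CPM in the exposed groups in order of dose. Its other arm, miR-142-3p, also not tested, went the other way. It was pooled at 30.2 CPM in controls, from 1 male, and at 102, 54.6 and 131 CPM in the exposed groups.

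Epithelial miRNAs of the miR-200 family (5 of 5 in the table) had median sums of 8719, 16446, 14217 and 24930 CPM from control to EGME75. Their ranges were 6249 to 12877, 6122 to 33314, 2513 to 30123 and 18091 to 47724. On this scale no EGME75 male overlapped the controls, with the 3 libraries under 1000 miRNA counts included. The share of all miRNAs that separated in this way was not counted. Of 4 tested, miR-200a-3p, miR-200b-3p and miR-429 were called higher at EGME60 and EGME75, and miR-200c-3p was not (-0.07 and 0.19). The shares of all tested miRNAs called higher there were 20% and 21.9%. At EGME50, where miR-320-3p was not called, miR-200a-3p (2.37, edgeR adjusted p = 0.0318) and miR-200b-3p (1.32, edgeR adjusted p = 0.0336) were already called higher, among 2.86% of all tested. Neither was called there with RLE factors, the sum of the 4 tables, chip as a fixed block or limma-voom. With the sum of the 4 tables as library size none of the 4 was called at EGME60 and 1 at EGME75.

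Muscle miRNAs (4 of 4 in the table) had median sums of 16677, 23289, 36263 and 36987 CPM, with ranges of 9539 to 32667, 9321 to 45806, 13065 to 117146 and 11152 to 98000. Of 2 tested, miR-145-5p of smooth muscle was called higher at EGME60 and EGME75 (1.30 and 0.94) and miR-143-3p was not (1.08 and 0.49). The shares of all tested miRNAs called higher are those given for the blood cell miRNAs. With the sum of the 4 tables neither was called at either dose, and at EGME75 neither was called with chip as a fixed block or with no filter. Their median at EGME75 turned from 0.72 to -0.36 with the sum of the 4 tables. The striated muscle miRNA miR-1-3p had 28 reads in 1 of the 10 control males and was at 0 in all 3 exposed groups. Another, miR-133a-3p, was pooled at 1044 CPM in controls, from 2 of the 10 males, and 1 library held 81.0% of all its reads. In the exposed groups it was at 85.1, 117 and 210 CPM, from 6, 2 and 3 males in order of dose. EGME60 replicate 5, the library with 422 reads of miR-202-5p, ranked 2 of 39 for the blood cell sum (21732 CPM, the other EGME60 males having a median of 6501) and 5 for the muscle sum (66643 CPM). For the epithelial sum it ranked 26 (12290 CPM, the other EGME60 males having a median of 17922), and for the germ cell sum 30. The part of blood, epithelial and muscle cells in the values of miR-320-3p and miR-202-5p was not tested.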

How the data were processed

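Small RNA of sperm from 39 rats was sequenced, and the authors deposited 4 tables of raw counts of sense-strand reads, 1 column per library. All 4 hold whole numbers, every column matched 1 sample by its library name (unmatched columns: 0), and the mature miRNA table was analysed. The other 3 (tRNA genes, noncoding transcripts, RNAcentral entries) served only for library totals. Per the submitters' processing notes FastQC, Bowtie and DESeq2 were used; their settings, and how reads that fit several miRNAs were counted, are not given in the sources used here. The miRNA table held only 17 values of 1 against 1088 of 2. Whether single reads were dropped before deposit is not given either and was not tested.

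Groups were taken from the sample titles. Counts were fitted with edgeR 4.0.16 (R 4.3.3, limma 3.58.1): filterByExpr by group, which kept 105 of 405 miRNAs and 97.1% of counts, TMM factors, robust quasi-likelihood fits over all 39 libraries, two-sided tests, Benjamini-Hochberg over all tested miRNAs, threshold 0.05. Errors are standard errors from the F statistic, and 95% intervals are 1.96 SE either side. On simulated counts of the 105 miRNAs for EGME75 against EGME0, 86.7% of changes of 2 log2 units, 39.6% of 1 unit and 0.631% of unchanged miRNAs were called. The simulation kept the real library totals, with equal numbers of rises and falls and no chip effect. Its rates average over miRNAs and do not cover miR-202-5p by itself or the choice of what counts are scaled to. CPM are per 1000000 counts of the table, except for the log2 CPM used for Spearman's rho. Alternatives were RLE factors, library totals, the sum of the 4 tables as library size, no filter, DESeq2 1.42.0, chip as a fixed block or (limma-voom) a random block, the miRNA total as a covariate, and leaving out shallow or single libraries. Leaving out EGME60 replicates 5 and 21 together was chosen after seeing the data.

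The members and lists were chosen with earlier results of these data known. Named miRNAs were the 4 members, the 3 most like each measurable member by Spearman's rho, miRNAs sharing a seed, and members of the lists. Sequences and coordinates came from RefSeq (GRCr8), where 372 of the 405 names matched, and were not used in counting. Replicates are separate males. Intervals of shares cover counting error only.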

Additional observations from a re-analysis of the deposited data

Results flagged for a closer look

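Within each dose group the highest and lowest level of each member was compared with the nearest other male, using the gap divided by the group's range. Of 10 groups with any variation 5 had a male that stood apart at the 95% level, where chance gives about 1 in 20 groups of normally distributed values. These levels are not normally distributed and hold many values of 0, so the number that stood apart is a description. For miR-202-5p these were EGME60 replicate 5, at 21082 CPM with the next male at 5427, and EGME50 replicate 4, at 1723 CPM (57 reads of 33079) with the next at 501. For miR-320-3p they were EGME75 replicate 24, at 21583 CPM from 3 reads of 139, and EGME0 replicate 33, at 1821 CPM from 2 reads of 1098. For miR-134-5p it was EGME60 replicate 21, at 270 CPM with all other males of the group at 0, which fixes the outcome of this comparison.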

How the results depend on the processing

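For miR-320-3p the direction at EGME60, at EGME75 and for the slope was the same in all 10 alternatives and without any single library, and its call at EGME60 and for the slope was lost only with the sum of the 4 tables as library size (1.28 and 0.92). At EGME75 it was lost with that sum (0.36), with limma-voom and chip as a random block (1.30), with the miRNA total as covariate (0.74) and without libraries under 1000 miRNA counts (1.07). No paired analysis was run. The replicate numbers are running library numbers, and the sample labels name no pairing of males between groups.

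For miR-202-5p at EGME60 the call was lost with the sum of the 4 tables (3.11), no filter (2.73), DESeq2 (2.67), chip as a fixed block (1.74) and without EGME60 replicates 5 and 21 (0.98). Leaving out 1 library gave 0.98 to 3.15, and 8 of 19 such fits lost the call: those without EGME60 replicate 5 or EGME0 replicate 1, 9, 10, 17, 18, 25 or 34. At EGME75 limma-voom called it (2.18). For the slope library totals alone (2.82) and limma-voom (2.15) called it, and so did leaving out EGME0 replicate 2, within a range of 1.29 to 2.79. From EGME50 to EGME60 RLE factors (3.35) and the miRNA total as covariate (3.64) called it, as did leaving out EGME50 replicate 4 or EGME60 replicate 30, within 1.51 to 3.9996.

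Values never called also changed sign. miR-202-5p at EGME50 turned to 0.20 with the sum of the 4 tables and ranged from -1.51 to 0.10 without single libraries (above 0 without EGME0 replicate 2). From EGME60 to EGME75 it was 0.57 with chip as a fixed block, 0.21 with limma-voom, 0.043 with the covariate and 0.51 without EGME60 replicates 5 and 21, and -1.55 to 0.51 without single libraries (above 0 without EGME60 replicate 5). miR-320-3p was 0.076 there with library totals alone and -0.62 to 0.061 without single libraries (above 0 without EGME60 replicate 29 or EGME75 replicate 39).

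Counts of called miRNAs changed as follows. The main fit and most alternatives tested 105 miRNAs. No filter tested 404, the fit without shallow libraries 114 and that without EGME60 replicates 5 and 21 108. Fits without single libraries were filtered anew. Counts with no filter thus have a larger base than the others. At EGME50 there were 3, but 0 with RLE factors, the sum of the 4 tables or either use of chip, 11 with library totals or no filter, and 0 to 3 without single libraries (0 without EGME0 replicate 2, 10, 17 or 26 or EGME50 replicate 19 or 35, and 1 without EGME0 replicate 9 or 18). At EGME60 there were 33 of 105, but 1 of 105 with the sum of the 4 tables. With no filter there were 61 of 404, a smaller share than in the main fit. The slope called 48 of 105, but 22 of 105 and 90 of 404 under those 2 settings, both smaller shares. From EGME50 to EGME60 there were 0, but 4 with RLE factors, 3 with DESeq2, 2 with the covariate, 1 with library totals, no filter or without shallow libraries, and 0 to 5 without single libraries (5 without EGME60 replicate 30, 2 without EGME50 replicate 19, and 1 without EGME50 replicate 4 or 35 or EGME60 replicate 5, 6 or 13). From EGME60 to EGME75 there were 0, but 2 with the sum of the 4 tables and 4 with no filter. Library totals alone moved the share of higher calls at EGME60 from 63.6% to 82.9%, at EGME75 from 51.1% to 76.7% and for the slope from 54.2% to 78.8%, and the sum of the 4 tables moved it to 100% (1 call), 7.14% and 18.2%. Why these values changed was not tested, except that fewer libraries or a larger library size follow from the settings themselves.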
